A study of Mus musculus with 6 samples.

Results

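Collagen VI, its cell-surface partners and the multiplexin collagens were followed in cultured mouse lung fibroblasts exposed to DKK1, as 10 genes of the 45706 in the deposited table: Col6a1, Col6a2, Col6a3, Col6a5, Col6a6, Antxr1, Antxr2, Cspg4, Col15a1 and Col18a1. The genes were taken by symbol as a family and chosen by their DKK1 against control difference in these same 6 libraries, which was already known, so every value of that difference below describes these genes, carries no independent support and is not a test of the family. Fibroblasts were grown out of collagenase-digested lungs of wild-type mice. The 3 samples labelled control are set against 3 that were exposed for 24 hours to the recombinant mouse protein at 30 ng/ml. The labels give neither strain, age nor sex, nor the number of mice behind a replicate, so the spread between samples may be technical. The comparison asks which transcripts differ when fibroblasts meet DKK1, a secreted antagonist of canonical Wnt signalling that occupies the LRP5 and LRP6 co-receptors.

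Collagen VI is built from an alpha1, an alpha2 and an alpha3 chain, which wind into a short triple helix between large globular ends. These heterotrimers pair, pair again inside the cell, and join end to end outside it into beaded microfilaments that lie close to the cell surface and link basement membranes with the interstitial matrix. The alpha3 chain is the largest, with a long array of von Willebrand factor A domains at its N-terminal end, while the fragment endotrophin is cut from its C-terminal end, and the alpha5 and alpha6 chains (with alpha4 in the mouse) can take its place. Antxr1 and Antxr2 encode transmembrane receptors, best known as anthrax toxin receptors, whose von Willebrand factor A domain binds matrix proteins, and Antxr2 takes part in the uptake of collagen VI. Cspg4 encodes NG2, a membrane proteoglycan of pericytes and mesenchymal progenitors that binds collagen VI. Col15a1 and Col18a1 encode the multiplexins, basement membrane collagens with glycosaminoglycan side chains, and endostatin is cut from the end of the Col18a1 product.

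Libraries held from 22565917 to 34727102 counts. All 8 fibroblast markers examined averaged at least 1 CPM (the count divided by its library total, on the usual CPM scale), with a summed level of 12532 to 14970 CPM over the 6 libraries. Markers of other cell types were present as well, and replicate 3 of both groups stood apart with higher epithelial, endothelial, mesothelial and leukocyte sums, while glial markers (2 of 4 averaging at least 1 CPM) summed to 6.64 to 9.07 CPM with DKK1 replicate 3 the lowest. Epithelial markers summed to 125 CPM in control replicate 3 and 125 CPM in DKK1 replicate 3, against 37.6 to 46.9 CPM in the other 4 libraries, with Scgb1a1 at no more than 3 counts in every library. In RNA from whole cultures, fewer cells of a type and less RNA per cell cannot be told apart. Among all 14635 genes tested, 131 passed an adjusted p under 0.05 in edgeR's quasi-likelihood test (102 higher and 29 lower with DKK1), which is 0.895% of them, 0.697% higher and 0.198% lower. With the replicate number added as a block, 1379 genes passed, or 9.42%, with 4.96% higher and 4.46% lower.

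The starts of the 3 abundant chain genes are shown first, because the chains of this heterotrimer are made from separate genes. Promoter windows of 250 bases before and 50 after each RefSeq start (GRCm38.p6) were at hand for 9 of the 10 genes, Antxr1 being the other. There were 11 windows, with an additional window for Col6a2 and for Col18a1. They were searched on both strands for the TATA box (TATAAA), the CCAAT box (CCAAT), the GC box (GGGCGG), the AP-1 site (TGACTCA) and the core of the TCF/LEF site of Wnt target genes (CTTTGA). The stretches below lie on the minus strand and are written 5′ to 3′, with matches in capitals. For Col6a2 and Col6a3 they are the bases of the window upstream of the gene in both GENCODE and RefSeq, chr10:76623631-76623880 and chr1:90844002-90844221; the RefSeq gene Col6a3 reaches 30 bases beyond the GENCODE one, and those bases are not shown. For Col6a1 they are the 30 bases around its matches, chr10:76726111-76726140, which lie before the RefSeq start but within the longer GENCODE gene.
Col6a1: atgctgTGACTCActcagCTTTGAggccct
Col6a2: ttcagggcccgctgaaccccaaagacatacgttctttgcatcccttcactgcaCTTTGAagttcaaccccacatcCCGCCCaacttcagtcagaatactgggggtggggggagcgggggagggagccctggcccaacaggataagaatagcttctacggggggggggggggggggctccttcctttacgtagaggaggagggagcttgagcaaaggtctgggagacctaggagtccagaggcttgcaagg
Col6a3: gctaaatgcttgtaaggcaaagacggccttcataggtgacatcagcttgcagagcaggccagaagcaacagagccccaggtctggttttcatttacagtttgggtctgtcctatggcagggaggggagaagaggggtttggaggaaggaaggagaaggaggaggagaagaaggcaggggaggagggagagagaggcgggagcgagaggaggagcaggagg

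An AP-1 match was found in the Col6a1 window alone among these genes, 90 bases before the RefSeq start and inside the GENCODE gene, and 5.20% of all 32851 windows held that match. The TCF/LEF core matched in the windows of Col6a1, of Col6a2 at the more distal of its 2 starts and of Col15a1, against 16.0% of all windows. The GC box matched in windows of Col6a2, Col6a5, Col6a6, Antxr2, Cspg4 and Col18a1, against 35.7% of all windows. The TATA box (13.6% of all windows) matched in that of Antxr2. The CCAAT box (37.4%) matched in the more distal window of Col18a1 (chr10:77166481-77166780). Its other window (chr10:77113656-77113955) held none of the 5 motifs. None of these 5 motifs was matched in the 300 bases around the Col6a3 start, which says only that these letters are not in that window. A match is a description of the sequence, not a site shown to be bound.

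The expression of the chains was compared per length, since a longer transcript gives more reads. Counts were divided by the mean length of the gene's transcripts and scaled to the same total in every library. In control cells Col6a3 stood at 241 ± 3.15 (SD, n = 3), Col6a1 at 137 ± 2.49, Antxr1 at 77.1 ± 2.70, Antxr2 at 43.6 ± 1.24 and Col6a2 at 42.5 ± 2.85 on this per-length scale. Col6a3 ranked 698th by this level among 23862 genes with a count. Antxr2 and Col6a2 overlapped between samples and are not ordered here. Below them came Col15a1 at 17.4 ± 1.48 and Col18a1 at 15.5 ± 2.28, which also overlapped, and Cspg4 at 4.36 ± 1.13. This order depends partly on the length used: with the longest transcript Col6a3 stood at 179, Col6a1 at 133 and Antxr1 at 123, Col6a2 (62.0) lay above Antxr2 (36.6), and Col18a1 (17.9) above Col15a1 (10.4).

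The replacement chains were nearly silent in these fibroblasts. Col6a5 had 1, 1 and 0 counts in control and 2, 4 and 0 counts in DKK1 libraries. Col6a6 had 1, 0 and 3 counts in control and 2, 2 and 0 counts in DKK1 libraries. A floor of 3 counts, read here as the smallest signal, corresponds to 0.0864 CPM in the deepest and 0.133 CPM in the shallowest library, for counting error only, and Col6a5 passed that floor in DKK1 replicate 2 alone. Col6a4, the remaining mouse chain gene, had 1, 1 and 2 counts in control and 3, 9 and 4 counts in DKK1 libraries. Col6a4, Col6a5 and Col6a6 were left out of the main edgeR comparison by its low-count filter, which leaves 8 of the 10 genes tested there. The edgeR fit without that filter and DESeq2 held all 10.

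Among those 8 genes the clearest difference between the treatments was in Col6a3. Its level was 693, 692 and 682 CPM in the control libraries and 518, 527 and 517 CPM in the DKK1 libraries. Every DKK1 library lay below every control library, and the spread within a group was small beside the gap. Col6a3 fell from 689 ± 6.30 to 521 ± 5.53 CPM (SD, n = 3 each), to 0.756 of its control level. The log2 fold change was -0.41 (edgeR adjusted p = 0.00154 at SE 0.03 over all genes), and the fall was seen in 3 of 3 same-numbered pairs. Of the 29 genes that passed as lower with DKK1, Col6a3 was the 5th most abundant, and by p-value it stood at rank 2 of the 14635 genes. It passed in each of 17 alternative fits, with log2 fold changes of -0.42 to -0.38 and adjusted p-values of 2.98e-49 to 0.0157. The 5 smooth muscle markers, all of which averaged at least 1 CPM, were each lower with DKK1 in 3 of 3 pairs. Their sum went from 1709 to 1799 CPM in control to 1455 to 1572 CPM in DKK1 libraries. Among all tested genes, 7.11% had CPM values that did not overlap and were lower with DKK1. The share of all genes lower in 3 of 3 pairs was not counted, so no loss of smooth muscle expression is read from these values. The part of these markers in the Col6a3 result was not tested.

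The chains that share the heterotrimer with alpha3 differed less. Col6a1 measured 212, 208 and 206 CPM in control and 204, 197 and 184 CPM in DKK1 libraries. The groups did not overlap, but control replicate 3 and DKK1 replicate 1 lay close together. Its log2 fold change was -0.10 (SE 0.04) and did not pass (edgeR adjusted p = 0.46). With the replicate block Col6a1 fell (log2 fold change -0.10, SE 0.025, adjusted p = 0.0209), and when the trend against GC content and length was also removed it did not pass (-0.075, adjusted p = 0.0808), nor did it in DESeq2 with the block (adjusted p = 0.229). Leaving out DKK1 replicate 3 took the log2 fold change to -0.06.

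Col6a2 measured 119.9, 107 and 122 CPM in control and 115, 101 and 105 CPM in DKK1 libraries. The groups overlapped, replicate 2 of each group being its lowest. The log2 fold change was -0.13 (edgeR adjusted p = 0.544 at SE 0.06). With the block it fell (log2 fold change -0.12, SE 0.03, adjusted p = 0.0276), and with the GC and length trend also removed it did not pass (-0.08, adjusted p = 0.164), nor did it in DESeq2 with the block (adjusted p = 0.322). Over the 17 alternatives, adjusted p-values lay between 0.0209 and 0.752 for Col6a1 and between 0.0276 and 0.822 for Col6a2.

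**Figure D1:**
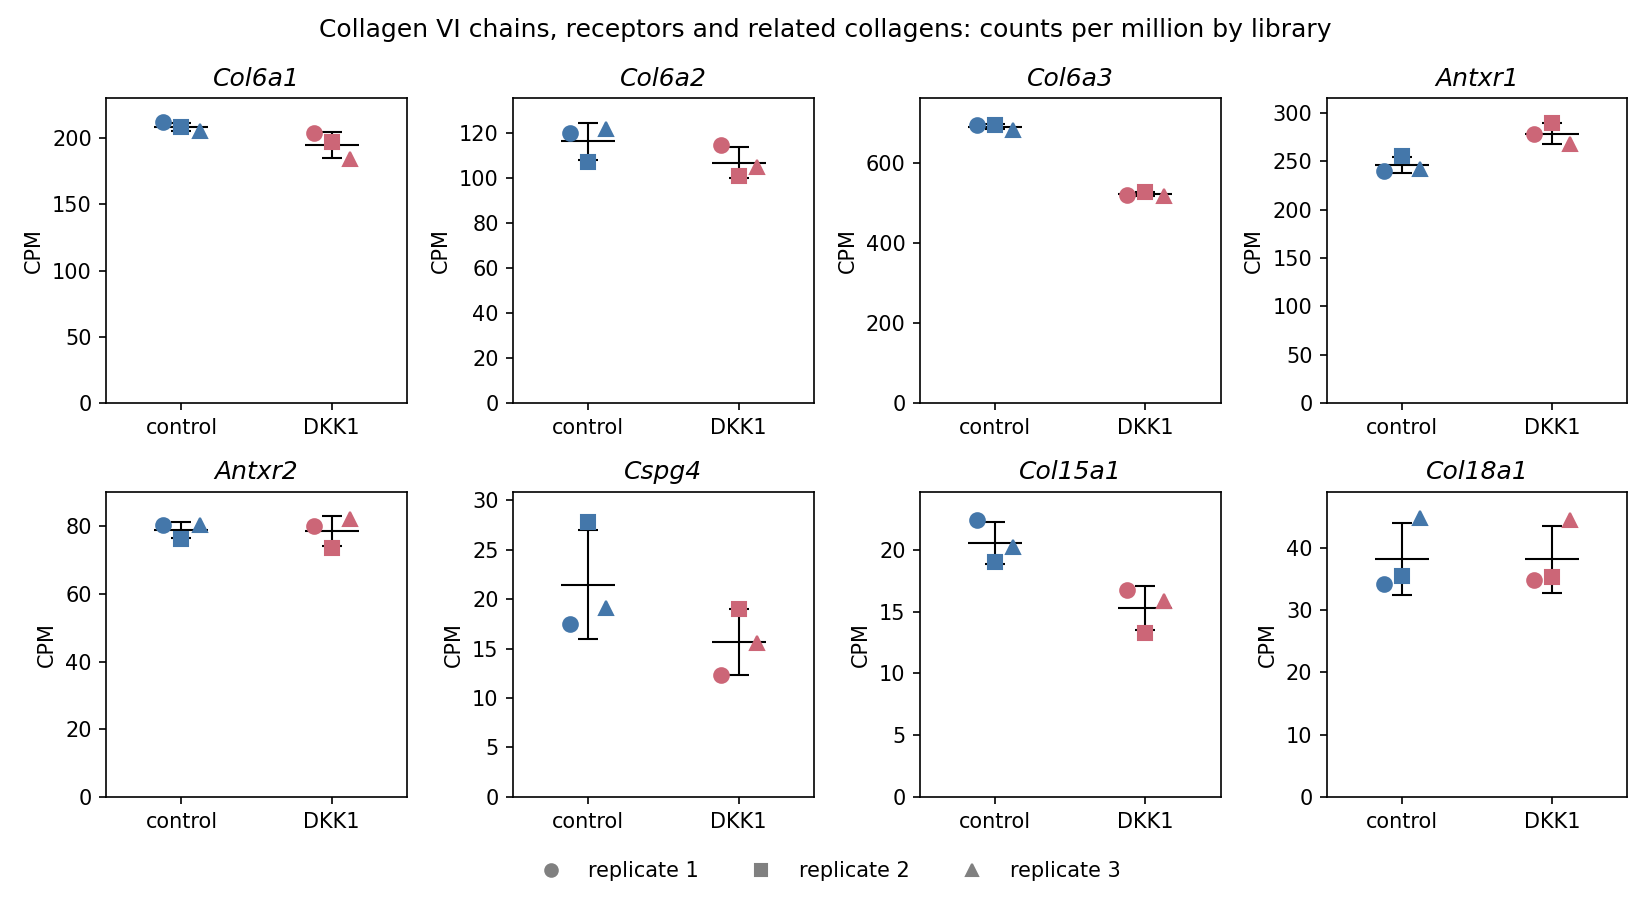
CPM (linear axes from 0) of the 8 tested genes in each library. Points are libraries, with the replicate number given by shape, and bars show mean ± SD of 3 libraries. Col6a3 separates widely, at 682 to 693 CPM in control and 517 to 527 CPM in DKK1 libraries. Antxr1 lies higher with DKK1, and the groups overlap for Antxr2 and Col18a1.

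Ratios between chains within a library do not depend on how libraries are scaled. The per-length ratio of Col6a3 to Col6a1 was 1.75, 1.77 and 1.77 in the control libraries and 1.36, 1.43 and 1.499 in the DKK1 libraries. The groups did not overlap. The ratio of Col6a3 to Col6a2 was 5.52, 6.19 and 5.36 in control and 4.32, 4.99 and 4.72 with DKK1, again without overlap. With the longest transcript its means were 2.90 and 2.38, so the size of this ratio depends on the length chosen. The ratio of Col6a1 to Col6a2, in contrast, was 3.23 ± 0.234 in control and 3.28 ± 0.193 with DKK1 (SD, n = 3 each), with overlapping samples. Replicate 2 held the highest value in both groups. Within same-numbered pairs this ratio was slightly higher with DKK1 each time (by 0.021, 0.011 and 0.114).

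Of the summed per-length level of these 3 chains, Col6a3 took 57.3% ± 0.533 in control and 52.2% ± 1.26 with DKK1, and the sum went from 420 ± 5.40 to 348 ± 11.2. The value of the share depends on the length used (47.8% in control with the longest transcript and 48.4% with the union of exons), but not the gap between groups, which was -5.11 and -5.16 percentage points with those lengths and -5.15 with the mean length. With the union of exons Col6a3 exceeded Col6a1 in control cells (ratio 1.21 ± 0.0105) and stood near it with DKK1 (0.981 ± 0.0491). These differences come from the same contrast as the fall of Col6a3 and were not tested.

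**Figure D2:**
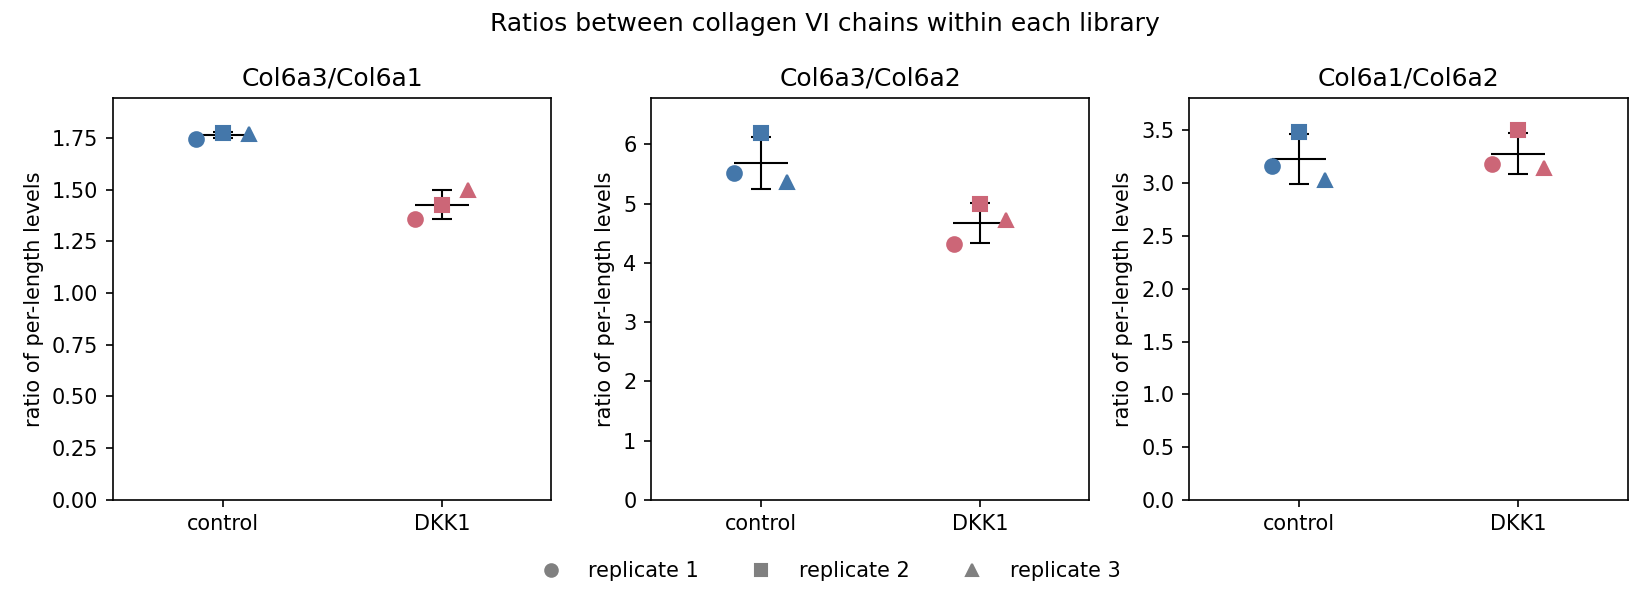
Ratio of per-length levels (mean transcript length) between collagen VI chain genes within each library, on linear axes from 0. Points are libraries, shapes give the replicate number, and bars show mean ± SD of 3 libraries. Col6a3 to Col6a1 drops from about 1.76 to 1.43, while Col6a1 to Col6a2 stays between 3.03 and 3.50 in all 6 libraries.

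Of the receptors, Antxr1 had the higher per-length level and was the only gene of the 8 with a log2 fold change above 0. It measured 240.5, 255 and 242 CPM in control and 278, 289.5 and 268 CPM in DKK1 libraries. Every DKK1 library lay above every control library. The log2 fold change was 0.18 (edgeR adjusted p = 0.142 at SE 0.04), which did not pass. With the block Antxr1 rose (0.18, SE 0.02, adjusted p = 0.000141), in 3 of 3 same-numbered pairs. It also passed in DESeq2 without the block (adjusted p = 0.0434), and over 17 alternatives the adjusted p lay between 1.98e-05 and 0.404.

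The Antxr2 means of the groups lay close together and the samples overlapped. It measured 80.3, 76.2 and 80.4 CPM in control and 80.2, 73.6 and 82.1 CPM in DKK1 libraries, and replicate 2 of each group was its lowest. The log2 fold change was -0.01 (edgeR adjusted p = 0.968 at SE 0.05; under the block, adjusted p = 0.862). Without DKK1 replicate 2 its sign turned, to 0.03 (adjusted p = 0.914). The per-length ratio of Antxr1 to Antxr2 was 1.77 ± 0.113 in control and 2.02 ± 0.196 with DKK1 (SD, n = 3 each), and the samples of the groups overlapped, though the ratio was higher with DKK1 in each of the 3 pairs (by 0.269, 0.333 and 0.144). The samples of the groups did not overlap in the per-length ratio of Antxr1 to Col6a3, which was 0.320 ± 0.00990 in control and 0.480 ± 0.0144 with DKK1. Both ratios hang on the length used: with the longest transcript Antxr1 to Antxr2 was 3.36 and 3.83, and Antxr1 to Col6a3 was 0.686 and 1.03, so that Antxr1 lay above Col6a3 on average with DKK1, though not in DKK1 replicate 3 (0.995).

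The proteoglycan gene Cspg4 had the largest standard error of the 8 genes. It measured 17.5, 27.8 and 19.1 CPM in control and 12.4, 19.0 and 15.6 CPM in DKK1 libraries. Replicate 2 of each group was the highest, and the groups overlapped. The log2 fold change was -0.46 (edgeR adjusted p = 0.466 at SE 0.20), and with the block, which takes out the difference between replicate numbers, Cspg4 fell (-0.47, SE 0.07, adjusted p = 0.000356; 0.000356 to 0.753 over 17 alternatives). Leaving out control replicate 2 took the log2 fold change to -0.22 and leaving out DKK1 replicate 1 to -0.32, and neither fit passed. Cspg4 is itself 1 of the 6 pericyte markers, all of which averaged at least 1 CPM. The other 5 summed to 96.6, 104.6 and 133 CPM in control and 91.7, 104.1 and 117 CPM in DKK1 libraries. That sum was lower with DKK1 in 3 of 3 pairs, but the single genes had no shared direction. Mcam, the most abundant, was lower in 3 of 3 (63.3, 65.7 and 84.0 CPM in control, 51.8, 56.0 and 69.1 CPM with DKK1). Kcnj8 was higher in 3 of 3 (8.20, 10.4 and 16.7 CPM in control, 13.9, 18.7 and 22.0 CPM with DKK1), and the others were mixed. Their part in the Cspg4 values was not tested.

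The multiplexin genes had unlike values, a contrast between them that was not tested. Col15a1 measured 22.4, 19.0 and 20.3 CPM in control and 16.7, 13.3 and 15.8 CPM in DKK1 libraries. The groups did not overlap, and replicate 2 was the lowest in each. Its log2 fold change was -0.44 (edgeR adjusted p = 0.113 at SE 0.10). With the block Col15a1 fell (-0.44, SE 0.06, adjusted p = 0.000364), in 3 of 3 pairs. It also passed without the block in DESeq2 (adjusted p = 0.0211) and without the low-count filter (0.0145), and over 17 alternatives its adjusted p lay between 0.000245 and 0.337.

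The level of Col18a1 followed the replicate number, and its group means were nearly equal. It measured 34.2, 35.5 and 44.8 CPM in control and 34.8, 35.3 and 44.4 CPM in DKK1 libraries, so that replicate 3 was the highest in each group. The log2 fold change was -0.01 (edgeR adjusted p = 0.994 at SE 0.12; under the block -0.004, SE 0.04, adjusted p = 0.973). Leaving out replicate 3 of both groups gave 0.001 (adjusted p = 0.998). Endothelial markers, all 7 of them averaging at least 1 CPM, summed to 66.3 CPM in control replicate 3 and 69.3 CPM in DKK1 replicate 3, against 24.1 to 32.2 CPM in the other 4 libraries. Mesothelial markers summed to 28.1 and 31.6 CPM in those libraries against 9.73 to 10.9 CPM, and leukocyte markers to 774 and 792 CPM against 384 to 454 CPM, with Cd3e at 0 throughout. The part of these cells in the Col18a1 values was not tested.

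**Figure D3:**
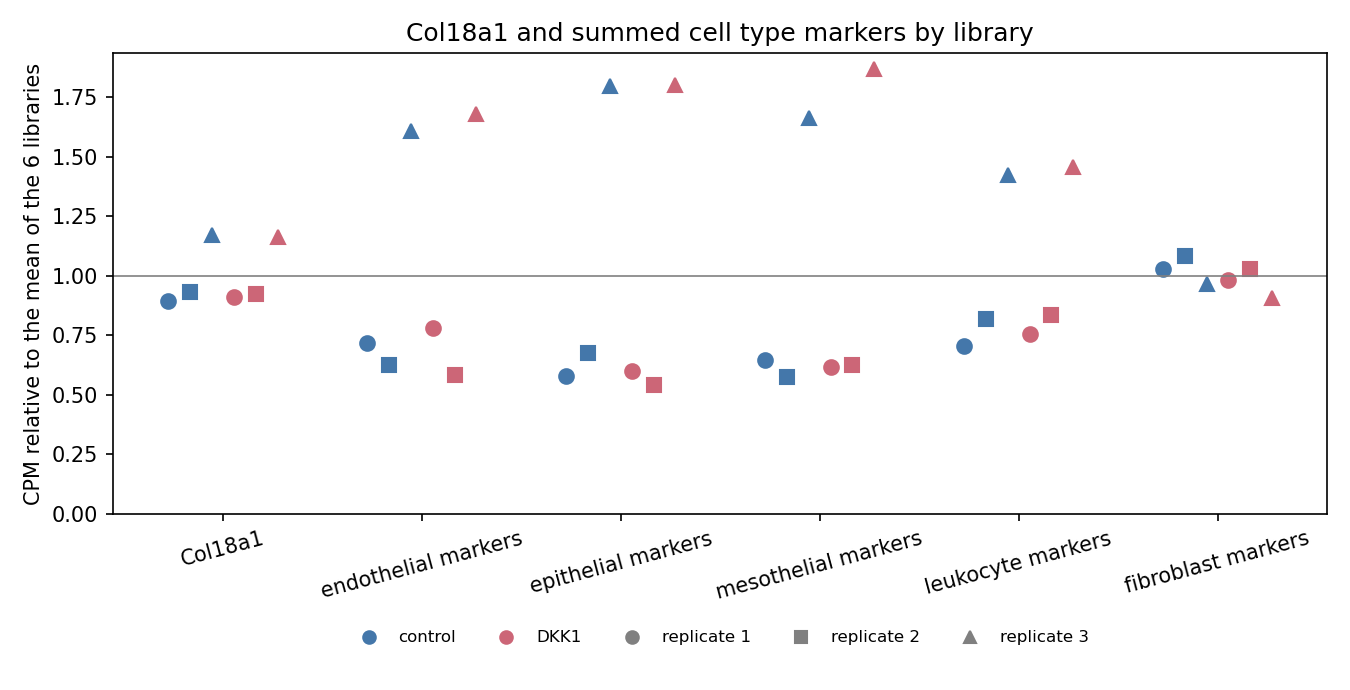
Col18a1 and the summed CPM of 5 marker lists in each library, relative to the mean of the 6 libraries (linear axis from 0). Colours give the treatment and shapes the replicate number. Col18a1 and the endothelial, epithelial, mesothelial and leukocyte sums are highest in replicate 3 of both groups, and the fibroblast sum is lowest there within each group.

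Counted together, 1 of the 8 tested genes passed (Col6a3, lower), beside 0.895% of all tested genes. With the block 6 of 8 passed, 5 lower (Col6a1, Col6a2, Col6a3, Cspg4 and Col15a1) and 1 higher (Antxr1), beside 9.42%. The CPM values of the groups did not overlap in 4 of 8 (Col6a1, Col6a3, Antxr1 and Col15a1), beside 16.5% of all tested genes, 9.39% with DKK1 higher and 7.11% with DKK1 lower. The median log2 fold change was -0.11 over the 8 genes and -0.001 over all tested genes. Nothing is read from these counts, since the genes were chosen with this contrast in view.

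**Figure D4:**
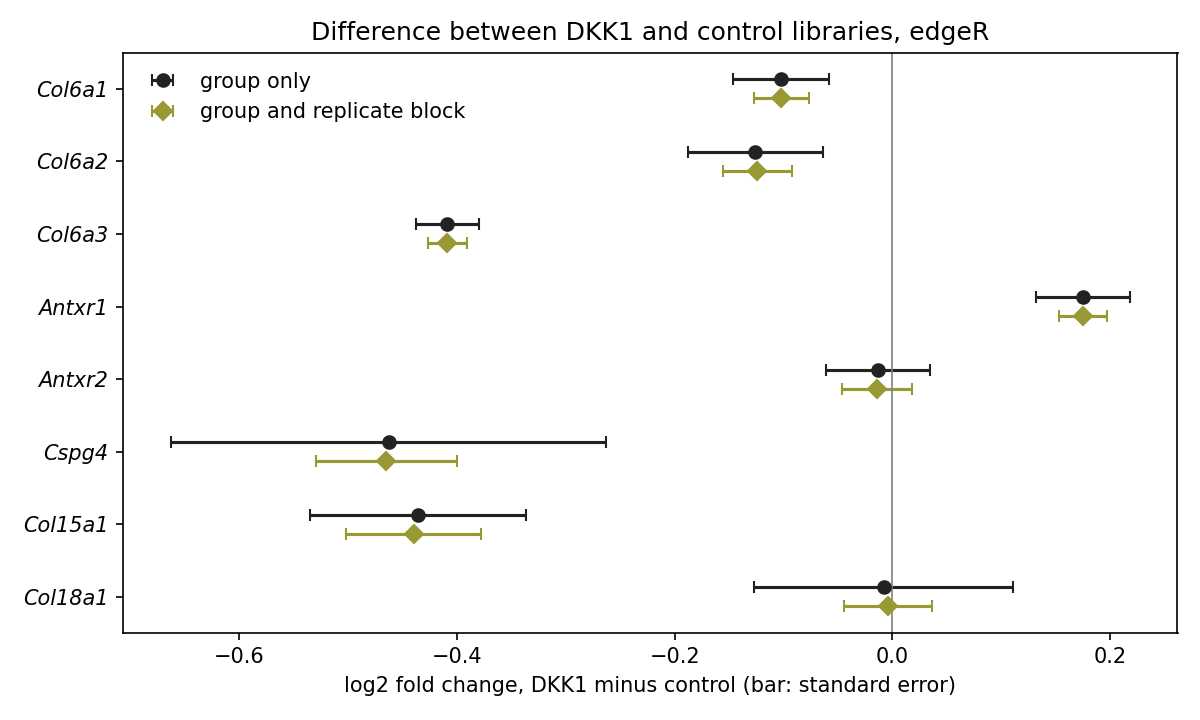
Log2 fold change, DKK1 minus control, of the 8 tested genes with standard errors, from edgeR fits with the group only (circles) and with the replicate block (diamonds). Estimates hardly move between the fits, the standard errors shrink, and Col6a3 has the narrowest bar of the group-only fit.

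Genes of the matrix and membrane that surround collagen VI were read from the same fit. Small leucine-rich proteoglycans, matrilins, basement membrane proteins and other matrix partners of collagen VI made a list of 16, of which 15 were tested and 1 passed, lower, beside 0.198% of all tested genes. The median log2 fold change of the list was -0.08, against -0.001 for all tested genes. The gene was Fmod, a small leucine-rich proteoglycan that binds collagen, at 23.4, 23.4 and 22.9 CPM in control and 17.2, 18.1 and 19.3 CPM in DKK1 libraries. The groups were well apart. Fmod fell, its log2 difference being -0.36 (edgeR adjusted p = 0.0345 at SE 0.06), a call that held without DKK1 replicate 3 (0.0367) and was lost without any other single sample (0.07 to 0.149) or replicate 3 of both groups (0.0578). With the block 8 of the 15 passed, 7 lower and 1 higher, beside 9.42%. The most abundant partner, fibronectin (Fn1), had a log2 fold change of -0.13 (adjusted p = 0.279 at SE 0.04) and fell with the block (adjusted p = 0.00398).

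The partner that was higher with the block was decorin (Dcn), a proteoglycan that binds collagen VI and also a gene of the fibroblast marker list, named here after its values were seen. Dcn measured 33.0, 39.9 and 48.8 CPM in control and 55.7, 65.4 and 64.5 CPM in DKK1 libraries. The groups did not overlap, and each spanned a wide range. Its log2 fold change was 0.60 (edgeR adjusted p = 0.0791 at SE 0.12; under the block 0.62, adjusted p = 9.73e-06). Without control replicate 3 it passed (0.75, adjusted p = 0.0212), as it did without replicate 3 of both groups (0.0369), without the low-count filter and in DESeq2, and its adjusted p spanned 1.06e-10 to 0.245 over the alternatives.

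Other receptors for collagens, mainly integrins and discoidin domain receptors, made a list of 10, of which 9 were tested and 1 passed, lower, beside 0.198% of all tested genes, with a list median of -0.05. Itga1, the alpha subunit of a collagen-binding integrin, measured 72.0, 70.5 and 70.0 CPM in control and 58.8, 56.3 and 60.4 CPM in DKK1 libraries. The groups did not come near each other. Itga1 fell, its log2 difference being -0.28 (edgeR adjusted p = 0.0183 at SE 0.04; under the block, 0.000129). The call held without control replicate 3 (0.0419) or DKK1 replicate 3 (0.0283) and was lost without any other single sample (0.0851 to 0.0927). With the block 2 of the 9 passed, beside 9.42% of all tested genes, the other being Itga2, which encodes another collagen-binding integrin subunit and was higher (log2 fold change 0.40, adjusted p = 3.34e-05; without the block 0.41, adjusted p = 0.449; up to 0.896 over the alternatives); it was named after its values were seen. Leaving out DKK1 replicate 1 took the Itga2 log2 fold change to 0.21. Itgb1, the beta subunit they share and the most abundant of the list, had a log2 fold change of -0.05 (adjusted p = 0.6 at SE 0.03; under the block, 0.0809).

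Enzymes and chaperones that hydroxylate, fold, export or cleave collagens made a list of 17, of which 16 were tested and 0 passed in edgeR, beside 0.895% of all tested genes, with a median of 0.04. An unadjusted p under 0.05 was found for 2 of the 16 and for 1544 of all 14635 tested genes. With the block 5 of the 16 passed, 3 lower and 2 higher, beside 9.42% of all tested genes. Serpinh1, the collagen chaperone HSP47 and the most abundant of the list, had a log2 fold change of -0.06 (adjusted p = 0.615 at SE 0.03; under the block, 0.0334, lower). Other non-fibrillar collagens made a list of 20, of which 13 were tested and 0 passed in edgeR, beside the same 0.895%, with a median of 0.02. Of these 13, 4 had an unadjusted p under 0.05, beside the 1544 of 14635 given above. With the block 4 of the 13 passed, 3 higher and 1 lower, beside the same 9.42% (4.96% higher and 4.46% lower). The most abundant, Col12a1, which coats collagen fibrils, was at 1144, 1162 and 1186 CPM in control and 1324, 1258 and 1253 CPM in DKK1 libraries. Those groups did not overlap, and Col12a1 had a log2 fold change of 0.13 (adjusted p = 0.153 at SE 0.03) and rose with the block (adjusted p = 0.0021). Over these 4 lists together DESeq2, and also edgeR without a low-count filter, called 3 genes (Fmod, Itga1 and Dcn), and limma-voom called 2, so that neither the enzyme list nor the non-fibrillar list held a call in those fits.

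The genes whose log2 CPM followed the mean of Col6a1, Col6a2 and Col6a3 most closely over the 6 samples were, among 9216 genes of at least 10 CPM, Luzp1 (Pearson r = 0.99), Actn1 (0.99), Mtus1 (0.99), Ficd (0.98) and Ncoa2 (0.98). The correlation takes no account of the size of a change. Luzp1 measured 174, 172 and 174 CPM in control and 171, 168 and 169 CPM in DKK1 libraries. Its log2 fold change was -0.04 and did not pass (edgeR adjusted p = 0.74). Actn1, a cross-linker of actin filaments, measured 2007, 1953 and 2001 CPM in control and 1877, 1807 and 1834 CPM in DKK1 libraries. These correlations share the treatment difference and the same library scaling, and describe these 6 libraries.

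The genes lie on 6 chromosomes of GRCm38, the build named in the submitters' processing notes, by GENCODE M21 coordinates. Col6a1 (ENSMUSG00000001119, chr10:76708792-76726168), Col6a2 (ENSMUSG00000020241, chr10:76595762-76623630) and Col18a1 (ENSMUSG00000001435, chr10:77052178-77166548) lie on the minus strand of chromosome 10. Col6a3 (ENSMUSG00000048126, chr1:90765923-90843971), Antxr1 (ENSMUSG00000033420, chr6:87133853-87335821) and Antxr2 (ENSMUSG00000029338, chr5:97882783-98031043) also lie on minus strands, as do Col6a5 (ENSMUSG00000091345, chr9:105856078-105960643) and Col6a6 (ENSMUSG00000043719, chr9:105687809-105828160). Cspg4 (ENSMUSG00000032911, chr9:56865033-56899870) and Col15a1 (ENSMUSG00000028339, chr4:47208161-47313167) lie on plus strands. All 10 genes had expected counts that were exactly whole as deposited (no tolerance) in all 6 libraries, against 9.62% to 10.6% of all values in a library that were not. That share runs over all 45706 genes, of which 23985 had at least 1 count in the 6 samples, so it includes many values of 0, which are whole. Of the annotated genes that share exon bases with them, Gm12426 (antisense to Col15a1, 14 bases), n-R5s164 (in Antxr1, 112 bases) and Gm38314 (in Col6a6, 63 bases) were listed at 0 counts.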

How the data were processed

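RNA sequencing of 6 samples was deposited as 1 table of expected counts per gene, which the authors deposited without visible scaling (column totals differ). STAR, RSEM and edgeR 4.2.1 are named in the submitters' processing notes, as is GRCm38, with no roles; annotation release and strandedness are not given in the sources used here. Of 45706 identifiers, 45143 were paired with symbols. Expected counts were rounded, filtered with filterByExpr (minimum count 10), scaled with TMM and tested with edgeR 4.0.16 (quasi-likelihood, two-sided, Benjamini-Hochberg) in R 4.3.3; standard errors are the absolute log2 fold change over the square root of F. Printed CPM values use library totals, while correlations between genes or samples were taken on TMM-scaled log2 CPM. Lengths came from GENCODE M21, which holds 98.7% of the transcript identifiers. The scripts were tested on simulated counts.

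Replicate numbers in the sample titles were taken as pairs, because samples sharing a number departed together from the means of their groups. The correlations across genes were 0.27, 0.23 and 0.41, the highest for replicate 3, whose marker sums stood apart. Samples with different numbers gave -0.28 to 0.075. Departures from a group mean cancel out within the group, so these values are not independent. What the numbers mark is not stated. The genes, lists and tests were chosen with earlier results of these data known. By rule the genes named are the 10 chosen, Col6a4, the most abundant and up to 4 passing genes (without the block) of each list, and the 5 most correlated genes. Outside the rule, Dcn and Itga2, the only genes of their lists higher with the block, and the markers Scgb1a1, Cd3e, Mcam and Kcnj8 were named after their values were seen, and genes sharing exon bases were named for their position. Alternatives used DESeq2 1.42.0, limma-voom (limma 3.58.1), other scalings, filters and lengths, the replicate block and leaving out samples; removing the GC and length trend and leaving out replicate 3 of both groups were chosen after seeing the data.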

Additional observations from a re-analysis of the deposited data

How the results depend on the processing

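Without the block 131 genes passed (102 higher, 29 lower), including 1 of the 8 chosen genes tested and 2 of the 53 list genes tested. Counts over all genes, chosen genes and list genes were 1379, 6 and 19 with the replicate block, 1306, 4 and 19 when the block was joined to a correction for GC content and length, and 551, 4 and 12 with DESeq2 and the block. DESeq2 without the block called 289, 3 and 3, and no low-count filter 329, 2 and 3 (the chosen genes being Col6a3 and Col15a1, with Antxr1 in DESeq2). The block called 726 higher and 653 lower. The cause of these gaps was not tested. Leaving out 1 sample gave 36 to 139 calls over all genes, 1 in each fit among the chosen genes, and 0 to 2 among list genes (0 in the 4 fits named next); the counts under 100 came without control replicate 1 (51), control replicate 2 (36), DKK1 replicate 1 (44) and DKK1 replicate 2 (57). Leaving out replicate 3 of both groups gave 149, 1 and 2.

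Of the 8 genes, 6 kept their sign in all 17 alternatives. Antxr2 turned in 1, and Col18a1 in 6: from -0.01 to 0.039 under the GC and length correction, 0.043 with that and the block, 0.001 without replicate 3 of both groups, and between -0.122 and 0.113 over the fits that leave out 1 sample; Antxr2 spanned -0.041 to 0.03 there. The cause was not tested. The control share of Col6a3 among the 3 chains was 57.3% with mean transcript lengths (57.0% to 57.5% leaving out 1 control sample), 47.8% with the longest transcript and 48.4% with the union of exons. Col6a5 and Col6a6 had at most 4 counts in a library, too few to show a fall.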
